A study of Mus musculus with 6 samples.

Results

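The genes described here encode the enzymes of glycolysis, the transporters that bring glucose in and carry lactate out, and the enzymes that pass pyruvate to mitochondria. They were taken as a fixed list of 33 gene symbols, and all 33 were found among the 55291 genes of the deposited table. The assay was sequencing of poly(A) RNA from BMDM, mouse macrophages derived in culture from bone marrow, which engulf dying cells. Cells pretreated with apoptotic cells (AC; 3 libraries) were compared with cells without that pretreatment (untreated; 3 libraries). No source used here states the mouse strain, age or sex, or where the apoptotic cells came from, how many were added and when. The labels do not say whether replicates are separate cultures or mice. Each p-value therefore reflects the spread of these libraries alone, part or all of which may be technical.

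Glycolysis splits glucose into pyruvate in the cytosol and yields ATP without oxygen. Hexokinase traps glucose in the cell, phosphofructokinase commits it to the pathway under the control of fructose-2,6-bisphosphate, and pyruvate kinase makes pyruvate. Pyruvate is then reduced to lactate, which leaves through monocarboxylate transporters, or is oxidised by mitochondrial pyruvate dehydrogenase, which its kinases switch off. Macrophages are known to shift between these routes when they are activated and when they digest engulfed cells.

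Levels are given as TPM, reads per merged exon length after each library was rescaled to sum to 1000000. The merged length counts every annotated exon of a gene, whether or not its transcripts here carry it. Levels, ranks and shares compared between genes therefore depend on it. Recovered reads on genes numbered 20717426 to 24980843 in AC pretreated and 19042049 to 32212701 in untreated libraries. The cells carried the defining macrophage transcripts: Adgre1, the F4/80 antigen gene, stood at 1641 to 2210 TPM after AC pretreatment and 2135 to 2633 TPM without it. All 10 thymocyte and T cell markers, 6 of 6 fibroblast markers and 6 of 6 neuron markers were below 1 TPM in all 6 libraries. Summed erythroid markers ranged from 0.357 to 17.5 TPM in AC pretreated and from 0.065 to 3.47 TPM in untreated libraries, and summed neutrophil markers from 22.01 to 38.7 and from 20.6 to 48.7 TPM in the same groups. Of 10 placental markers, 8 were above 0 in replicates 1 and 2 of both groups and all 10 were at 0 in replicate 3 of both groups. Their sum reached 101 TPM in AC replicate 2, and 24.6 TPM at most in untreated libraries. The part of these transcripts in the results below was not tested, so some differences are also given within the 4 libraries with such transcripts and between the 2 lacking them. Lyz2, the lysozyme gene that macrophages express strongly, was at 9607 to 12451 TPM in AC pretreated libraries, and at 83.7 TPM in untreated replicate 1 and 9270 and 10271 TPM in the other untreated libraries.

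Pretreatment with apoptotic cells was set against no pretreatment to ask whether transcripts of glucose use differ. None of the 33 genes passed the test. All 33 met the filter of at least 1 TPM in at least 3 libraries, and 0 had an adjusted p under 0.05 by limma, as did 0 of the 12603 genes tested (0% called). At an unadjusted p under 0.05 there were 0 of 33, against 1.3% of all genes tested. By voom on recovered reads 0 of the 32 with a read count passed. At an unadjusted p under 0.05 by voom there was 1, Slc2a3, beside 97 of all 12202 genes tested that way. Log2 differences were taken as AC pretreated minus untreated after adding 1 to each TPM, and ran from -0.38 to 0.29 with a median of -0.017, beside a median of -0.070 over all genes tested. The difference was below 0 for 19 of 33 members (57.6%), beside 70.6% of all genes tested. With median-of-ratios scaling these were 16 of 33 members and 52.6% of all genes. Members were 0 of 33 with a difference of over 1.5-fold in either direction, beside 3.29% of all genes. The 95% interval lay inside 2-fold for 33 of 33 members, beside 87.4% of all genes, and inside 1.5-fold for 22 of 33, beside 46.1%. That scale understates differences of low genes. In bulk RNA, fewer cells of a type and less RNA per cell cannot be told apart.

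**Figure D1:**
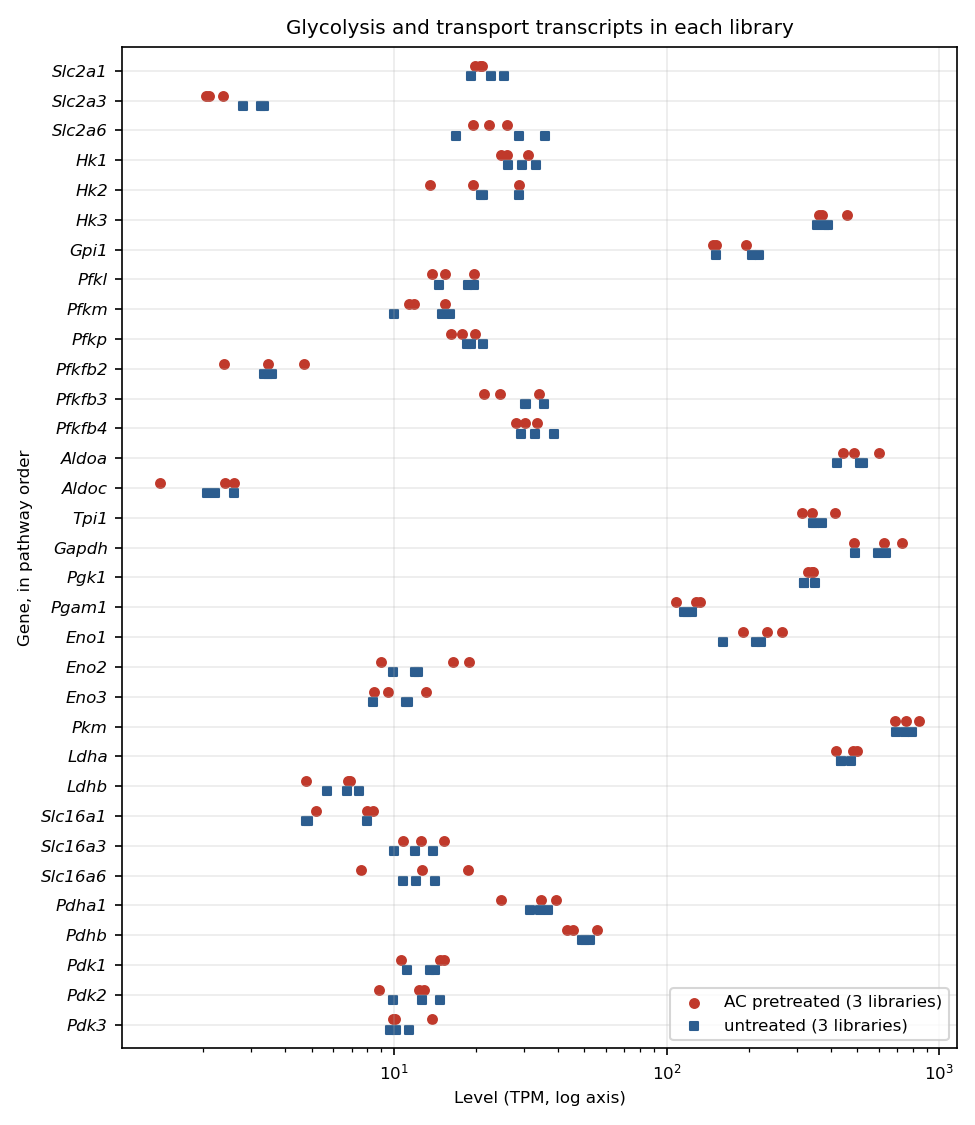
Level of each of the 33 transcripts in TPM (log axis), 1 point per library, with AC pretreated libraries as circles and untreated libraries as squares, genes in pathway order. Levels span from about 2 TPM for Aldoc to 755 TPM for Pkm on average, and the groups overlap for all genes but Slc2a3.

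The summed level of the 33 transcripts was 4725, 4243 and 4095 TPM in AC replicates 1, 2 and 3, against 4396, 4347 and 3968 TPM in untreated replicates 1, 2 and 3. These sums overlapped between the groups and took 0.472, 0.424 and 0.409% of TPM after AC pretreatment and 0.440, 0.435 and 0.397% without it. Pkm, which encodes pyruvate kinase, had the highest TPM of the members, at 763 ± 77.4 TPM in AC pretreated and 747 ± 51.4 TPM in untreated libraries (SD, n = 3 each, as for all means below). Aldoc, a brain-type aldolase gene, was the least abundant at 2.13 ± 0.647 and 2.29 ± 0.277 TPM in AC pretreated and untreated libraries. Between these, the 10 members above 100 TPM on average were Pkm, Gapdh, Aldoa, Ldha, Hk3, Tpi1, Pgk1, Eno1, Gpi1 and Pgam1. Phosphofructokinase, the regulated step, stood lower, with its 3 genes summing to 47.1 ± 3.95 TPM after AC pretreatment and 51.0 ± 7.08 TPM without it.

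Slc2a3 encodes GLUT3, a glucose transporter of high affinity (chromosome 6, 122727809 to 122801640, minus strand, mm10). It stood at 2.36, 2.04 and 2.10 TPM in AC replicates 1, 2 and 3, against 3.26, 3.35 and 2.79 TPM in untreated replicates 1, 2 and 3. Every AC library lay below every untreated library, which held for 1 of 33 members (3.03%), beside 4.42% of all genes tested in either direction, made up of 3.48% with AC lower and 0.936% with AC higher. Its log2 difference was -0.38 ± 0.21 (SE), with a 95% interval of -0.86 to 0.091 and adjusted p = 1.0 by limma. On leaving out 1 library the difference stayed between -0.44 and -0.34, and it was -0.43 within the 4 placental-positive libraries and -0.29 between the 2 negative ones. With 0.1 in place of 1 added to each TPM, the log2 difference of Slc2a3 over all 6 libraries was -0.51, and by voom it was -0.49. The gene rested on 155, 101 and 106 reads in the AC libraries and 170, 263 and 129 reads in the untreated ones. The other glucose transporters of the list stood at higher levels. Slc2a1, the GLUT1 gene, averaged 20.5 ± 0.579 TPM after AC pretreatment and 22.4 ± 3.09 TPM without it. Slc2a6, the gene of a lysosomal member of the family, stood at 25.9, 22.4 and 19.4 TPM in AC libraries, against 36.0, 28.7 and 16.9 TPM in untreated ones. The untreated libraries enclosed all AC values of Slc2a6, and its difference of -0.21 ± 0.27 ranged from -0.50 to 0.021 on leaving out 1 library.

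Macrophages of both groups carried mostly hexokinase 3 transcript. Hk3 averaged 398 ± 53.8 TPM in AC pretreated and 376 ± 16.5 TPM in untreated libraries, a log2 difference of 0.075 ± 0.14. It made up 90.7, 88.9 and 88.5% of hexokinase TPM in AC replicates 1, 2 and 3, against 86.3, 88.3 and 88.3% in untreated replicates. The shares did not overlap between the groups, though the nearest, in AC replicate 3 and untreated replicate 2, were 88.5 and 88.3%. Of 27 family shares examined, 4 did not overlap between the groups, those of Slc2a3, Hk1, Hk3 and Eno3, and shares of 1 family are not independent. The shares were not tested, and no such count was made for other gene families, so this count has no background. Hk2, the inducible hexokinase bound to mitochondria (chromosome 6, 82725025 to 82774454), stood at 13.6, 19.5 and 28.7 TPM in AC libraries, against 28.7, 20.9 and 21.3 TPM in untreated ones. AC replicate 1 was the lowest of the 6 and AC replicate 3 and untreated replicate 1 were the highest. Its difference of -0.24 ± 0.27 came to -0.56 within the 4 placental-positive libraries and 0.41 between the 2 negative ones. Hk1, the widely expressed form, averaged 27.2 ± 3.29 and 29.6 ± 3.61 TPM in AC pretreated and untreated cells. Gpi1, the isomerase gene of the next step, averaged 166 ± 26.5 TPM after AC pretreatment and 192 ± 35.4 TPM without it, a difference of -0.21 ± 0.18. On leaving out 1 library it ranged from -0.37 without untreated replicate 3 to -0.11 without untreated replicate 1, and it was -0.034 between the 2 libraries lacking placental transcripts.

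The 3 phosphofructokinase genes stood at similar TPM. Their merged exon lengths were 13401 bases for Pfkp, 6675 for Pfkl and 3340 for Pfkm. Reads in AC replicate 1 numbered 1961, 1189 and 358 in that order, so the likeness in TPM depends on these lengths. Pfkp, the platelet-type gene, averaged 17.9 ± 1.88 TPM in AC pretreated and 19.6 ± 1.43 TPM in untreated cells. Pfkl, the liver-type gene, averaged 16.3 ± 3.03 and 17.7 ± 2.65 TPM, and Pfkm, the muscle-type gene, 12.9 ± 2.23 and 13.7 ± 3.23 TPM in the same groups. The largest share of any form in any library was the 42.9% of Pfkp in untreated replicate 3. Among the genes whose products make and remove fructose-2,6-bisphosphate, Pfkfb3, whose enzyme strongly favours synthesis, had the difference furthest from 0 (chromosome 2, 11471433 to 11554077). Pfkfb3 stood at 21.5, 24.5 and 34.0 TPM in AC libraries, against 35.5, 30.6 and 30.4 TPM in untreated ones. AC replicates 1 and 2 were below all untreated libraries and AC replicate 3 was above 2 of them. Its difference was -0.28 ± 0.19, or -0.47 without AC replicate 3 (adjusted p = 0.973 by limma) and -0.15 without AC replicate 1. Pfkfb4 averaged 30.6 ± 2.82 TPM in AC pretreated and 33.6 ± 4.65 TPM in untreated cells, and Pfkfb2 was low at 3.50 ± 1.15 and 3.45 ± 0.107 TPM.

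**Figure D2:**
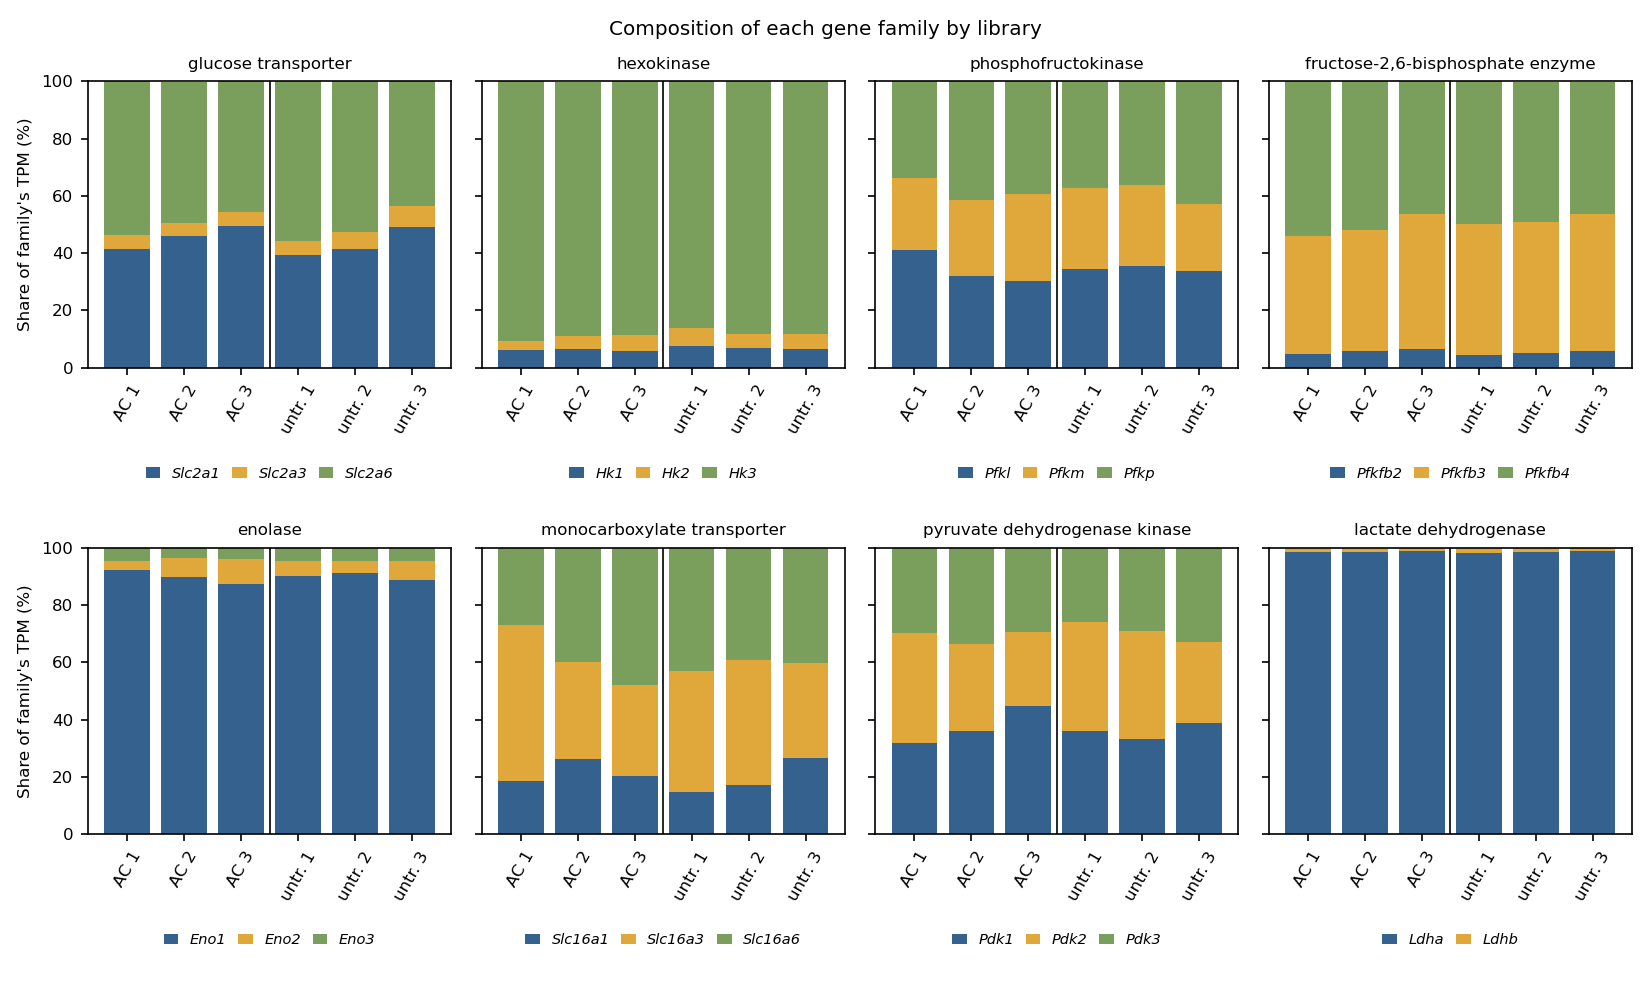
Share of each gene in its family's summed TPM (%), 1 bar per library, AC pretreated libraries left of the line and untreated libraries right of it. Hk3, Eno1 and Ldha dominate their families in all 6 libraries, while the Pfk, Pfkfb, Slc16a and Pdk families are mixed.

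The stretch from aldolase to lactate dehydrogenase held the 4 members of highest TPM, Pkm, Gapdh, Aldoa and Ldha, and also low ones such as Aldoc and Ldhb. Gapdh, whose enzyme makes the first NADH of the pathway and whose transcript is a common reference in expression assays, stood at 732, 628 and 489 TPM in AC libraries, against 594, 638 and 489 TPM in untreated ones. Its highest and lowest library were both AC pretreated, and its coefficient of variation over the 6 libraries was 15.8%. Pgk1, the phosphoglycerate kinase gene, was the steadiest member, with a coefficient of variation of 4.03% and means of 339 ± 8.91 TPM after AC pretreatment and 330 ± 17.7 TPM without it. Ldha followed at 6.73%, with 467 ± 41.7 and 450 ± 20.7 TPM in AC pretreated and untreated cells. Aldoa averaged 511 ± 80.6 and 487 ± 58.1 TPM in these groups. That level depends on the exon length used for Aldoa, which 2 annotated genes share as a symbol and for which no whole reads were recovered. Tpi1, the triosephosphate isomerase gene, averaged 357 ± 51.2 TPM in AC pretreated and 356 ± 14.8 TPM in untreated cells, and Pgam1, the mutase gene, 123 ± 12.9 and 119 ± 4.40 TPM. Reads of these abundant genes can be shared with processed copies, of which 17 were in the table by name. The highest was Pgam1-ps2, at 2.31, 2.49 and 1.504 TPM in AC libraries, against 3.45, 3.26 and 2.87 TPM in untreated ones, and the other 16 stayed below 1 TPM.

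Of the 3 differences above 0.2 on the log2 scale, a pair belonged to enolase genes and the other to Slc16a1. Eno1, the common form (chromosome 4, 150236721 to 150248879), stood at 264, 234 and 190 TPM in AC libraries, against 213, 222 and 161 TPM in untreated ones. The values overlapped, with AC replicate 3 below untreated replicates 1 and 2. Its difference of 0.21 ± 0.18 kept its sign on leaving out each library (0.065 to 0.34) and was 0.19 and 0.24 in the libraries with and without placental transcripts. Eno2, the neuronal form, which other cells also make (chromosome 6, 124760053 to 124769673), stood at 8.95, 16.4 and 18.9 TPM in AC libraries, against 12.2, 9.93 and 11.9 TPM in untreated ones. AC replicate 1 was the lowest of all 6 libraries, while AC replicates 2 and 3 were the 2 highest. The difference of Eno2 was 0.29 ± 0.27 (95% interval -0.32 to 0.90), and on leaving out 1 library it ranged from 0.096 without AC replicate 3 (adjusted p = 0.983 by limma) to 0.60 without AC replicate 1 (adjusted p = 0.775). Within the 4 placental-positive libraries it was 0.13, and 0.62 between the 2 negative ones. Eno3, the muscle form, averaged 10.4 ± 2.46 and 10.2 ± 1.62 TPM in AC pretreated and untreated cells. For lactate dehydrogenase, Ldha held 98.6, 98.6 and 98.9% of TPM in AC libraries and 98.3, 98.5 and 98.8% in untreated ones, so Ldhb, the heart-type subunit gene, was a minor transcript throughout.

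Lactate leaves cells mainly through MCT4, the product of Slc16a3, and MCT1, the product of Slc16a1, carries it both ways. Slc16a3 averaged 12.9 ± 2.25 TPM after AC pretreatment and 12.0 ± 1.92 TPM without it, a log2 difference of 0.095 ± 0.19. Slc16a1 stood at 5.18, 8.37 and 7.96 TPM in AC libraries, against 4.84, 4.76 and 7.96 TPM in untreated ones. Untreated replicate 3 lay with the 2 high AC libraries, so that the difference of 0.26 ± 0.26 was 0.39 in replicates 1 and 2 and -0.0001 in replicate 3. Slc16a6, a gene of the same family, stood at 7.56, 12.7 and 18.7 TPM in AC libraries, against 14.1, 10.8 and 12.0 TPM in untreated ones. It had the widest range of the list, 2.48-fold between AC replicates 3 and 1, with untreated values between them and a difference between groups of -0.0004 ± 0.29.

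At the entry to mitochondria, Pdha1 and Pdhb encode the subunits of the first pyruvate dehydrogenase enzyme. Pdha1 averaged 32.9 ± 7.45 TPM in AC pretreated and 34.2 ± 2.56 TPM in untreated cells, and Pdhb 48.0 ± 6.59 and 50.5 ± 1.77 TPM. Of the kinases that inactivate the complex, Pdk1 averaged 13.5 ± 2.59 and 12.9 ± 1.55 TPM in AC pretreated and untreated cells, Pdk2 11.4 ± 2.22 and 12.4 ± 2.42 TPM, and Pdk3 11.3 ± 2.19 and 10.4 ± 0.866 TPM. By TPM no kinase dominated, each holding between 25.8 and 44.8% of the family's TPM in every library. The kinase gene Pdk4, which is outside the 33, was at 0.042 TPM in AC replicate 2 and at 0 in the other 5 libraries.

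**Figure D3:**
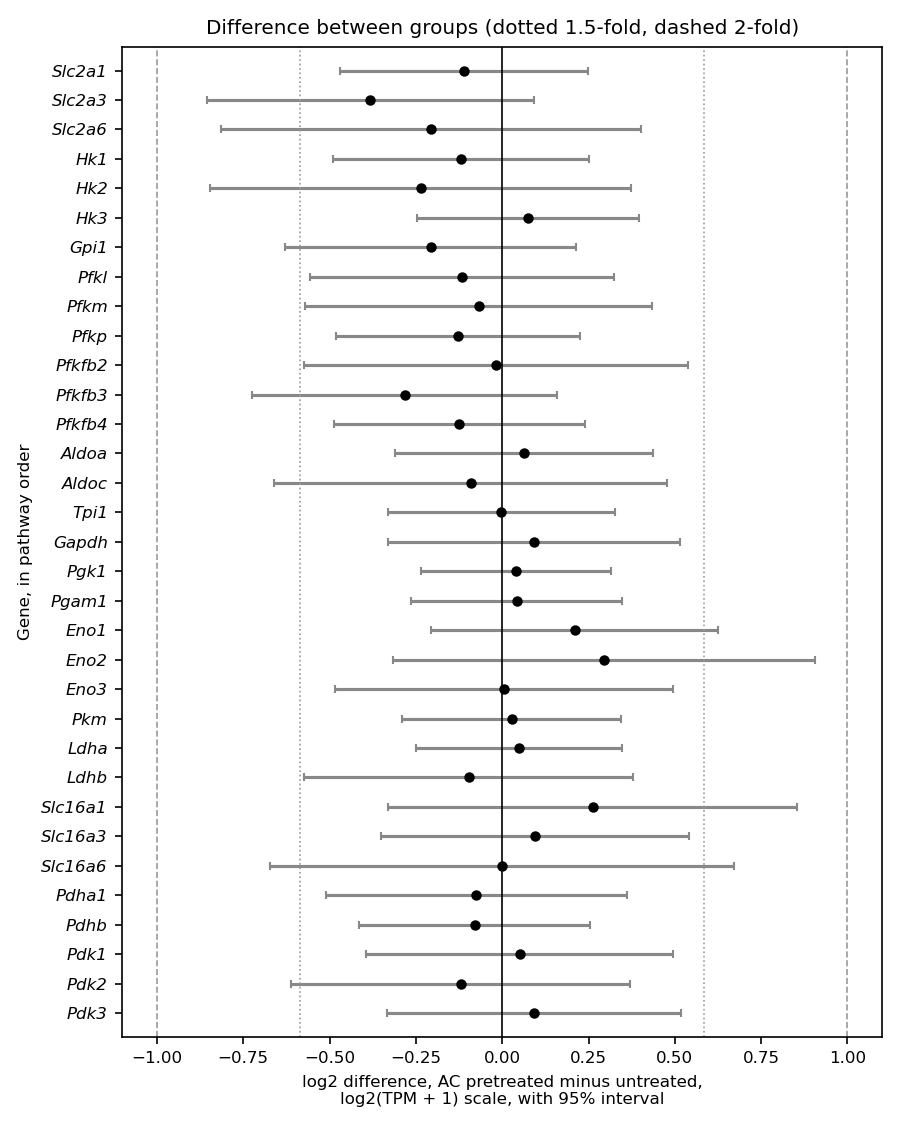
Log2 difference, AC pretreated minus untreated, computed on log2(TPM + 1), with the 95% interval for each gene, in pathway order, with 1.5-fold and 2-fold marked. All 33 intervals include 0 and lie inside 2-fold, and 22 lie inside 1.5-fold.

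Read along the pathway, small differences leaned to opposite sides of 0 in its first and second stretch, a split made after the values were seen and given no test. From glucose transport to fructose-2,6-bisphosphate, 12 of 13 members had differences below 0, with a median of -0.12, beside 70.6% of all genes tested, the exception being Hk3. With median-of-ratios scaling they were 11 of 13, beside 52.6% of all genes. On leaving out 1 library that median ranged from -0.24 without untreated replicate 3 to -0.033 without untreated replicate 1, and it was -0.063 without AC replicate 1 and -0.20 without AC replicate 3. From aldolase to lactate dehydrogenase, 3 of 12 were below 0, with a median of 0.041, and 2 of 12 with that scaling. The first stretch has the longer merged exon length, with a median of 6452 bases beside 3087 bases in the second. Spearman's rho between exon length and the difference between groups was -0.27 across the members and 0.0040 across 12405 genes. Among the 4 libraries with placental transcripts 13 of 13 members of the first stretch were below 0, with a median of -0.29, beside 71.2% of all genes. Between the 2 libraries without them 2 of 13 were, Slc2a3 and Gpi1, and the median turned to 0.19, beside 43.7% of all genes below 0. Without AC replicate 1 the second stretch had 7 of 12 below 0, beside 48.3% of all genes, and its median turned to -0.044. Without untreated replicate 3 it had 6 of 12 below 0, beside 70.5% of all genes, and a median of 0.0066. Over the whole list, the sign of the difference varied between these 2 sets of libraries for 24 of 33 members, a count that was not made over all genes.

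The spread among AC libraries exceeded most differences between the groups. The median SD of a member was 0.23 log2 units in AC pretreated and 0.17 in untreated libraries, beside 0.29 and 0.16 over all genes. The SD was larger in AC libraries for 23 of 33 members, beside 9236 of all 12603 genes tested. AC replicate 1 was the lowest of all 6 libraries for 11 members and the highest for 9, beside 47.5 and 11.6% of all genes. Untreated replicate 1 was the highest for 11 members and the lowest for 0, beside 23.6 and 4.6% of all genes. On the log2(TPM + 1) scale 7 members were lower in AC replicate 1 than in AC replicate 3 by over 0.5, and 2 were higher by as much, beside 4003 lower and 1315 higher among 12405 tested genes with a known length. The lower ones were Slc16a6 (-1.20), Hk2 (-1.03), Eno2 (-1.001), Pfkfb2 (-0.75), Pdha1 (-0.65), Pfkfb3 (-0.64) and Slc16a1 (-0.54). The higher ones were Eno3 (0.58) and Gapdh (0.58). Both counts depend on scaling. The median of AC replicate 1 minus AC replicate 3 was -0.014 over members and -0.22 over those 12405 genes. Median-of-ratios factors, by which TPM are divided, were 0.861 for AC replicate 1 and 1.045 for AC replicate 3. That scaling would raise each difference, leaving fewer members lower and more higher, and the counts were not made with it. This difference between AC replicates 1 and 3 was correlated with merged exon length, with Spearman's rho of -0.41 across the 33 members and -0.45 across 12405 genes with a known length, which share the same 2 libraries and are not independent. Between untreated replicates 1 and 3 the same rho was 0.16 across the members and 0.010 across those genes. The part of exon length in the spread was not tested.

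**Figure D4:**
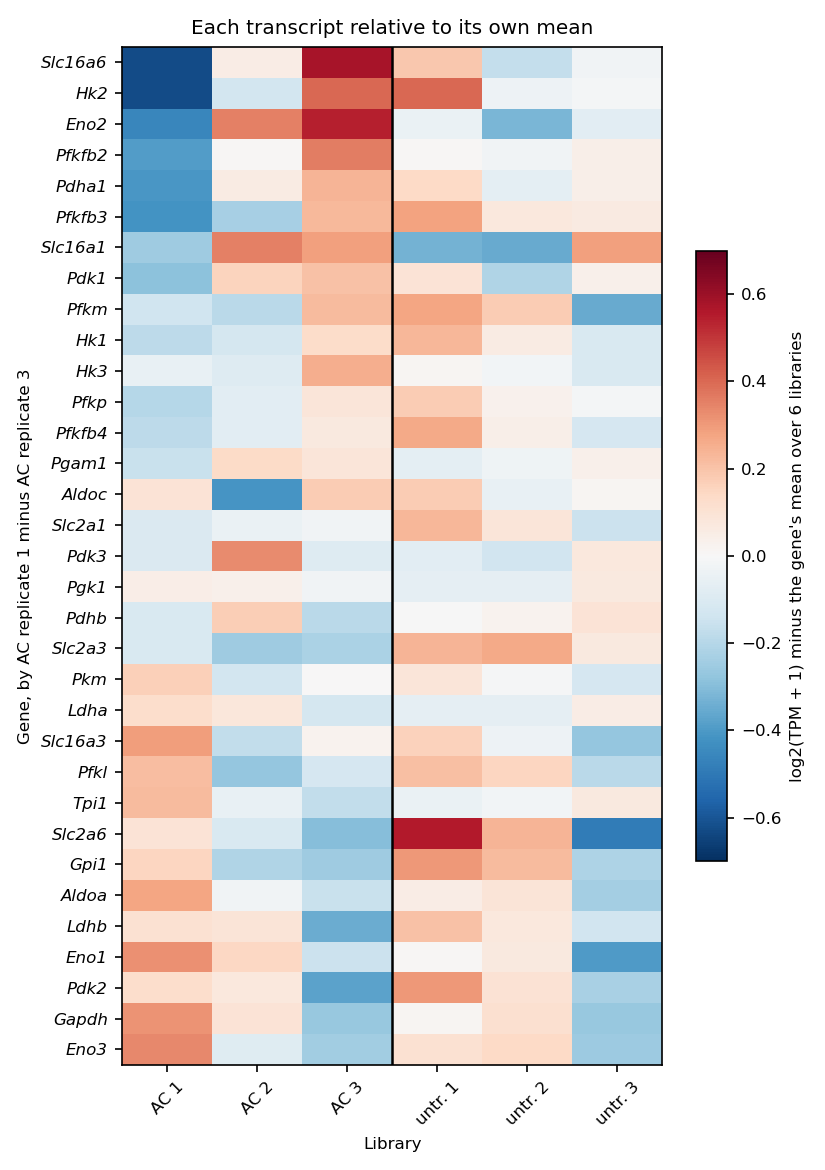
Log2(TPM + 1) of each gene minus its mean over the 6 libraries (colour), AC pretreated libraries left of the line and untreated libraries right of it, genes ordered by AC replicate 1 minus AC replicate 3. Slc16a6, Hk2 and Eno2 at the top run opposite to Gapdh and Eno3 at the bottom within the AC libraries, while no row separates the groups by colour except Slc2a3.

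**Figure D5:**
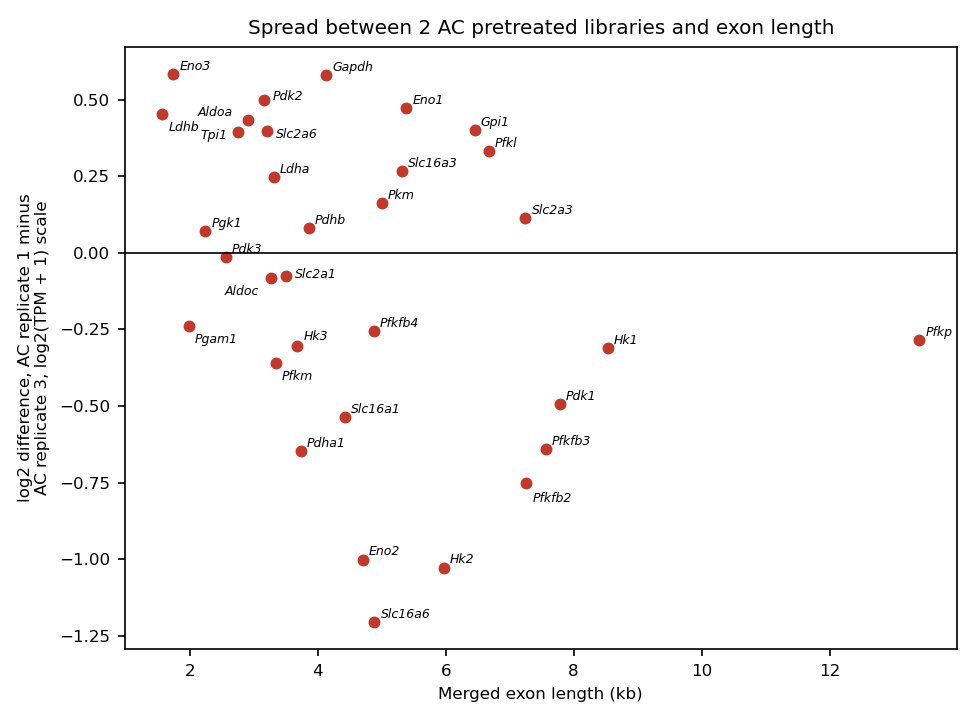
Difference between AC replicates 1 and 3 in log2(TPM + 1) for each of the 33 genes against its merged exon length in kb, 1 point per gene. Genes of longer merged exon length tend to lie lower, for a Spearman's rho of -0.41. The lowest points are Slc16a6, Hk2 and Eno2, between 4 and 6 kb.

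Promoter sequences are shown for Hk2, Slc16a1 and Pdha1, of the 7 members lower in AC replicate 1, and for Eno3, of the 2 higher ones. Both sets were drawn on TPM without median-of-ratios scaling and would differ with it. Glycolytic promoters are known to carry the core of the hypoxia response element, ACGTG or GCGTG, bound by HIF-1. The sequences below are the 250 bases before the gene's start from RefSeq (GRCm38.p6, the assembly of mm10), 5′ to 3′ on the gene's strand, with either core on either strand in capitals.
Hk2, chr6:82774455-82774704, minus strand: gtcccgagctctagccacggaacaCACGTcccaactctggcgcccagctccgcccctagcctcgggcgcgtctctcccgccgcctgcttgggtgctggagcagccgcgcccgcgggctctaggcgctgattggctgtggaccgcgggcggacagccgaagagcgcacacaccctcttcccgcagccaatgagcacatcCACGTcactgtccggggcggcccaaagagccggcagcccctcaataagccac
Slc16a1, chr3:104638414-104638663, plus strand: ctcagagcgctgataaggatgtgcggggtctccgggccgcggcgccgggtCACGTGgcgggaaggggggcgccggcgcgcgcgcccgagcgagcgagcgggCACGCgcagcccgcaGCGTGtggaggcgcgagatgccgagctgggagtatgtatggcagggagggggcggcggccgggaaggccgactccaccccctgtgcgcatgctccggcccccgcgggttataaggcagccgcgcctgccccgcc
Pdha1, chrX:160138431-160138680, minus strand: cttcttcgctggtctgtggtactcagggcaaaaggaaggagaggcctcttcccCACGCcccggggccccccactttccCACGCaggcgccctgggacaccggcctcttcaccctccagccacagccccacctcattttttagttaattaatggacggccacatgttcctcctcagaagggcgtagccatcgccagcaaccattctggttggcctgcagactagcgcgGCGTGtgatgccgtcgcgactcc
Eno3, chr11:70656926-70657175, plus strand: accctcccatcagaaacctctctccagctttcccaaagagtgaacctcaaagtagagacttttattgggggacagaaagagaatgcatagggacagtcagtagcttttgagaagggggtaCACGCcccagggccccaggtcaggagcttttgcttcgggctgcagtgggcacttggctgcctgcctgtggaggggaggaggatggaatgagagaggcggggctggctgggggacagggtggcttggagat
The Hk2 window held 2 matches, that of Slc16a1 4, of which the first pair overlap as the E-box CACGTG, that of Pdha1 3 and that of Eno3 1. RefSeq promoters of 300 bases, from 250 before to 50 after the start, were listed for 31 of the 33 members, and Slc2a3 and Slc16a6 had none. Of their 47 promoters 80.9% held ACGTG or GCGTG on either strand, beside 43.8% of all 32851 promoters of that length and 49.3% of the 21263 of protein-coding genes. ACGTG alone was in 48.9% of member promoters and 19.6% of all, and GCGTG in 57.4 and 32.4%. CACGTG, which contains ACGTG, was in 12.8% of member promoters and 7.15% of all. Of the 7 members lower in AC replicate 1, 6 had a listed promoter and 5 of these held ACGTG or GCGTG, beside 28 of all 31 members with one. The exception was Eno2, so the 3 printed for this set all hold a core while 1 of its 6 genes does not. These shares describe letters and not binding, and base composition was not matched.

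Other genes of glucose use were set beside the list. In 8 lists of 94 genes, 59 met the filter, and 0 of 59 had an adjusted p under 0.05 by limma. At an unadjusted p under 0.05 there was 1 of 59, beside 1.3% of all genes tested. Of 12 tested regulators of glycolytic transcription, 0 passed in either direction. Txnip, whose product restrains glucose uptake and whose transcript follows glucose supply, averaged 267 ± 80.0 TPM after AC pretreatment and 263 ± 83.2 TPM without it. Egln2, a prolyl hydroxylase gene of the oxygen-sensing pathway, averaged 68.1 ± 4.60 and 78.0 ± 11.4 TPM, and Mlx, a partner of the glucose-sensing MondoA factor, 53.8 ± 3.54 and 56.5 ± 1.33 TPM. Of 7 tested genes of other hexose and monocarboxylate transport, 0 passed, and Bsg, the chaperone that brings MCT1 and MCT4 to the membrane, averaged 457 ± 78.9 and 460 ± 51.6 TPM in AC pretreated and untreated cells. In the same list Slc16a10, an aromatic amino acid transporter gene, averaged 54.2 ± 11.1 and 57.5 ± 4.34 TPM and Slc2a8, the GLUT8 gene, 25.1 ± 2.55 and 29.3 ± 3.60 TPM.

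Of 9 tested genes of the pentose phosphate pathway, which branches off at glucose-6-phosphate and supplies NADPH, 0 passed, with 4 above and 5 below 0. Taldo1, the transaldolase gene, averaged 326 ± 58.6 TPM in AC pretreated and 308 ± 15.0 TPM in untreated cells. G6pdx, which encodes the first enzyme of the branch, averaged 144 ± 10.2 and 152 ± 20.7 TPM, and Pgd 106 ± 6.68 and 111 ± 8.21 TPM. Of 9 tested genes of pyruvate entry to mitochondria, 0 passed, 8 had differences below 0, which 70.6% of all genes had, and the median was -0.17. Dld, which encodes the third enzyme of the pyruvate dehydrogenase complex, averaged 69.2 ± 8.64 TPM after AC pretreatment and 77.1 ± 10.9 TPM without it, Dlat, the second enzyme's gene, 23.3 ± 3.84 and 25.3 ± 3.55 TPM, and Pdp1, a phosphatase gene that opposes the kinases, 28.1 ± 8.18 and 31.1 ± 5.09 TPM. Of 14 tested glycogen genes 0 passed, with Gyg, the glycogenin gene, at 235 ± 30.7 and 253 ± 17.6 TPM, Ugp2 at 79.8 ± 16.5 and 74.4 ± 12.8 TPM and Phka2 at 52.5 ± 11.4 and 56.3 ± 16.9 TPM in AC pretreated and untreated cells. Of 6 gluconeogenesis genes 2 met the filter and 0 passed, G6pc3 at 28.1 ± 4.003 and 28.2 ± 4.15 TPM and Pck2 at 15.8 ± 2.65 and 17.6 ± 4.40 TPM. Pck1 and G6pc were at 0 TPM in all 6 libraries.

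Of 13 isoenzyme genes outside the 33, 5 met the filter and 0 passed. Pgam2, the muscle-type phosphoglycerate mutase, was the 1 gene of the 8 lists at an unadjusted p under 0.05. It stood at 2.89, 4.71 and 2.57 TPM in AC libraries, against 9.11, 6.81 and 4.47 TPM in untreated ones, and the groups overlapped. Its log2 difference was -0.82 ± 0.29 (adjusted p = 1.0 by limma). Summed skeletal muscle markers were 0.049 to 0.281 TPM in AC pretreated and 0.992 to 1.58 TPM in untreated libraries, with Myh1, Myh4 and Mb at 0 and Acta1 and Ckm at 0.102 TPM or less in all libraries. The sum rested on Tnnt3, a fast troponin T gene, at 0.209, 0.278 and 0 TPM in AC libraries, against 1.58, 1.17 and 0.890 TPM in untreated ones. The part of muscle transcripts in the Pgam2 result was not tested. Adpgk, which encodes an ADP-dependent glucokinase, averaged 11.6 ± 0.345 TPM after AC pretreatment and 11.8 ± 1.43 TPM without it, and Bpgm 8.56 ± 1.12 and 8.48 ± 0.327 TPM. Hkdc1, Pgk2, Pklr and Ldhc were not detected at this depth, at 0 TPM in all 6 libraries.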

How the data were processed

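The deposited signal comes as 1 table of all 6 libraries, which the authors call TPM. STAR 2.7.10a, Subread, featureCounts 2.0.3 and mm10 are named, with no role or order, per the submitters' processing notes. Annotation, strand setting and treatment of multi-mapping reads are not stated by any source used here, so genes that overlap, lie antisense or have near-identical copies are uncertain. Deposited column totals lay between 54732 and 92831. Multiplied by merged exon lengths of GENCODE mouse release 21 and divided by 8.57, the deposited signal came out as whole reads for 23473 of the 23829 genes that had a length and any read (98.5%, tolerance 0.02 reads, in every library). It was therefore not scaled for depth, and each library was rescaled to sum to 1000000 (TPM). The planned test assumed TPM and was kept. It used limma 3.58.1 under R 4.3.3, with eBayes trend, on log2(TPM + 1) of genes reaching 1 TPM in 3 or more libraries, 2-sided, with Benjamini-Hochberg adjustment over 12603 genes and a threshold of 0.05. The test was tried on simulated data with a common spread taken from the untreated libraries. The wider spread among AC libraries was not simulated, so that trial does not show how the test does there. Alternatives were another pseudocount, no filter, median-of-ratios scaling, voom on recovered reads, eBayes without trend, a replicate block and leaving out each library, and, after the data were seen, splits by placental transcripts. All 33 members were named, and of each companion list the 3 most abundant tested genes at most; Pdk4, Pck1, G6pc and the isoforms at 0 were chosen after their values were seen, as were genes of the marker lists. Members and lists were chosen with earlier results of these data known. In the library columns, 0 were left unused. Some genes of the companion lists are not reported here. Sums, shares and motif searches were made in Python 3.11.15 with pandas 2.3.3, and plots with matplotlib 3.10.9.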

Additional observations from a re-analysis of the deposited data

How the results depend on the processing

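Under every alternative with a test, 0 of the 33 members had an adjusted p under 0.05, and over all genes 0 passed except with eBayes without trend, where 1 did (Gm22279, named after its value was seen; the cause was not tested). The median difference of the members was -0.017 and ranged from -0.053 to 0.019 on leaving out 1 library, and it was 0.12 between the 2 libraries without placental transcripts, which have no test (the cause was not tested). The replicate block left 0 calls and changed no call. Deviations of same-numbered libraries correlated at -0.060, 0.0098 and 0.17 for replicates 1, 2 and 3. Those of differently numbered libraries ran from -0.34 (AC replicate 3, untreated replicate 2) to 0.34 (AC replicate 1, untreated replicate 2). Neither these values nor the labels show that the numbers pair the libraries, although placental transcripts followed the number in both groups, and whether same-numbered libraries share a batch cannot be told from the labels.

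Signs turned with median-of-ratios scaling for Pfkfb2 (0.032), Tpi1 (0.067) and Slc16a6 (0.061), which left 16 of 33 members and 52.6% of all genes below 0, and with voom for Tpi1 (0.041) and Slc16a6 (0.030). Among the 4 libraries with placental transcripts they turned for Hk3 (-0.068), Tpi1 (0.12), Pkm (-0.019), Slc16a3 (-0.0043), Pdhb (0.021) and Pdk1 (-0.0077). Between the other 2 libraries they turned for Slc2a1 (0.13), Slc2a6 (0.19), Hk1 (0.24), Hk2 (0.41), Pfkl (0.069), Pfkm (0.58), Pfkp (0.098), Pfkfb2 (0.32), Pfkfb3 (0.16), Pfkfb4 (0.19), Aldoc (0.17), Gapdh (-0.0003), Pgk1 (-0.091), Ldha (-0.18), Slc16a1 (-0.0001), Slc16a6 (0.60), Pdha1 (0.20) and Pdk3 (-0.16).

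On leaving out 1 library the sign turned for 19 of 33 members, with ranges of -0.50 to 0.018 for Hk2, -0.20 to 0.18 for Pfkfb2, -0.059 to 0.16 for Aldoa, -0.041 to 0.25 for Gapdh, -0.16 to 0.13 for Eno3, -0.048 to 0.097 for Pkm, -0.027 to 0.20 for Slc16a3, -0.29 to 0.31 for Slc16a6, -0.21 to 0.11 for Pdha1, -0.26 to 0.053 for Pfkm, -0.20 to 0.091 for Aldoc, -0.11 to 0.083 for Tpi1, -0.014 to 0.13 for Pgam1, -0.043 to 0.21 for Pdk1, -0.050 to 0.17 for Pdk3, -0.033 to 0.14 for Hk3, -0.19 to 0.051 for Ldhb, -0.26 to 0.038 for Pdk2 and -0.50 to 0.021 for Slc2a6. The count of signs that turned on leaving out 1 library was not made over all genes. Depth limits Aldoc, with 31 to 73 reads per library, and Ldhb, with 52 to 114.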
